A study of Mus musculus with 6 samples.

Results

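Genes that build, crosslink and cut the collagen matrix were compared between the jejunum of 3 wild type and 3 double knockout mice. The genes are the collagens, the lysyl oxidases, the matrix metalloproteinases other than Mmp7 and the tissue inhibitors of metalloproteinases. They were found by symbol among the array's probe sets that name exactly 1 gene, which gave 67 genes on 131 probe sets out of 18193 genes so named. Where a gene had several probe sets, the brightest by its mean across the 6 arrays stood for it. Of the 67 genes, 27 had a log2 value above 4 on at least 3 of the 6 arrays and were tested, and 40 did not.

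All mice were males of the C57BL/6 background, 7 to 10 weeks old, caged singly and fed a synthetic diet in which milk fat gave 42% and cholesterol 0.2% of the energy. Tissue was taken after 3 weeks of this diet. The double knockout mice lacked TIS7 (Ifrd1) and SKMc15 (Ifrd2), related proteins described as transcriptional regulators. Which exons were removed, and whether the loss was confined to a cell type, is not given in the sources used here. Each mouse was hybridised to 1 Affymetrix array, and the deposited values are log2 levels, so a difference of 1 is a 2-fold change.

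Fibrillar collagens form the rope-like fibres of connective tissue, and type IV collagen forms the sheet-like basement membrane under the epithelium. Lysyl oxidases crosslink collagen and elastin, metalloproteinases cut matrix proteins, and the tissue inhibitors bind metalloproteinases and block them. In the gut wall most of these proteins come from fibroblasts, smooth muscle, endothelium and immune cells of the lamina propria and outer layers, while the absorptive epithelium supplies few of them.

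The targeted transcripts were low in all 3 double knockout mice. Ifrd1 had log2 values between 9.84 and 10.00 in wild type and of 6.27, 4.80 and 4.85 in double knockout mice 1, 2 and 3, and Ifrd2 lay between 8.20 and 8.61 against 2.59 to 2.74. Enterocyte markers, which define the labelled tissue, were all 10 bright, with a mean log2 level of 13.4 to 13.5 in every mouse. Array medians over all probe sets lay between 2.87 and 2.90. The number of arrays per group limits the precision of each value.

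Collagen and matrix-enzyme transcripts tended to have higher means in the double knockout group, but no gene of the set passed the test and the mice within each group differed widely. In whole jejunum, more cells of a type and more RNA per cell cannot be told apart. Of the 27 tested genes, 0 were called higher and 0 lower by limma at an adjusted p of at most 0.05, where 3.17% of 9673 tested genes were called higher and 1.60% lower. Adjusted p-values ran from 0.0704 to 0.960. At an unadjusted p of at most 0.05, 8 genes were higher, which is 29.6% of the 27 against 17.6% of all tested genes, and 0 were lower against 10.4%.

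Fold changes were positive for 24 of the 27 genes, where 58.1% of all tested genes were positive. Their median log2 fold change was 0.55, against 0.05 over all tested genes. For 7 genes (Col5a1, Col5a2, Loxl1, Mmp14, Mmp2, Timp2 and Timp3) every double knockout value lay above every wild type value, and for 0 genes every value lay below. This is 25.9% of the 27 genes, near the 22.5% of all tested genes that were separated in that direction, so the count of separated genes is not particular to the set. The corresponding share for lower genes was 14.2%.

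**Figure D1:**
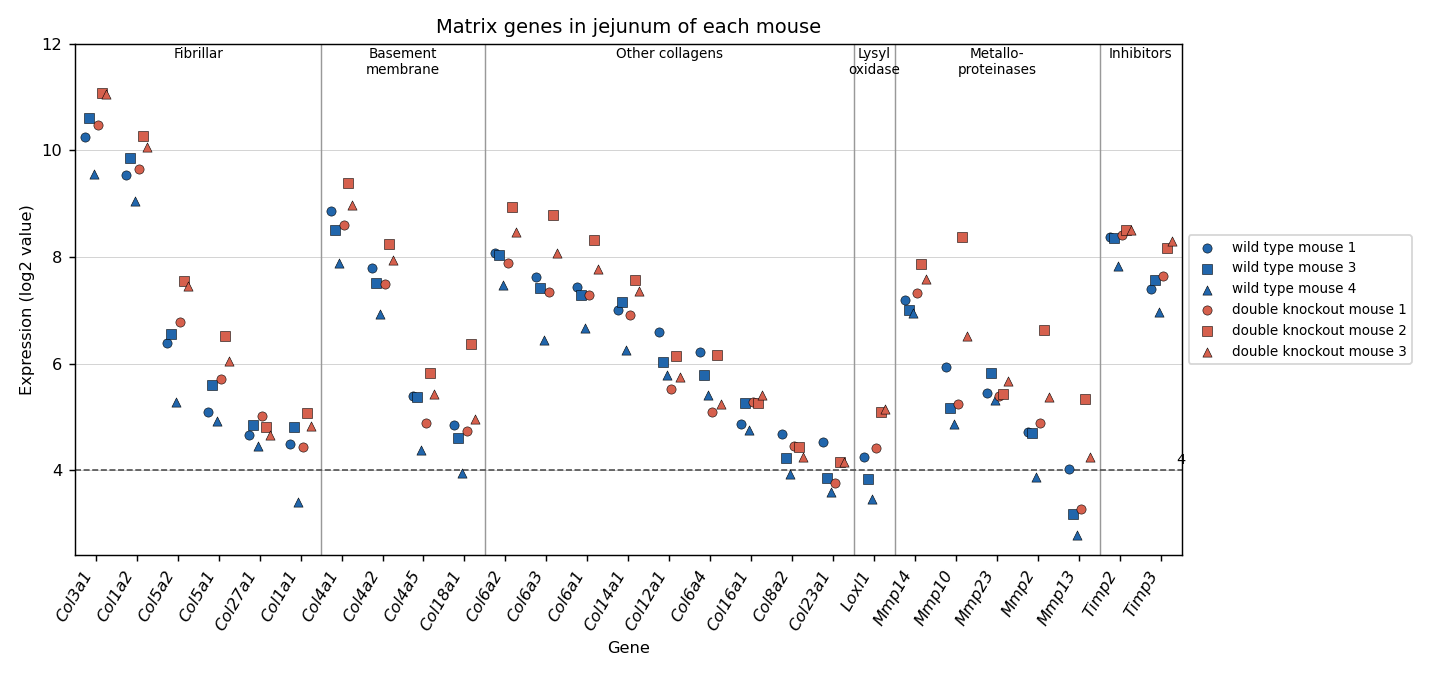
Log2 expression (vertical axis) of the 27 tested matrix genes (horizontal axis, grouped by family), 1 point per mouse, with wild type mice in blue and double knockout mice in red. The dashed line is the log2 minimum of 4, and wild type mouse 4 is the lowest point for 25 of the 27 genes.

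Mice within a group were further apart for these genes than for most others. The median SD between wild type mice was 0.42 for the 27 genes and 0.12 over all tested genes, and between double knockout mice it was 0.38 and 0.13. These SDs were not compared at equal brightness. Wild type mouse 4 had the lowest value of the 6 mice for 25 of 27 genes (92.6%), against 21.3% of all tested genes. Double knockout mouse 2 had the highest value for 18 of 27 (66.7%), against 17.2%. Double knockout mouse 1 lay inside the wild type range for 16 of the 27 genes and above it for 9, while mice 2 and 3 lay above the wild type range for 20 and 21.

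Averaged over the 27 genes, wild type mice 1, 3 and 4 stood 0.27, 0.17 and -0.45 from the wild type mean, and double knockout mice 1, 2 and 3 stood 0.13, 0.96 and 0.56 from it. The groups therefore overlapped, since double knockout mouse 1 lay below wild type mice 1 and 3. Wild type mouse 4 and double knockout mouse 2 were also left out together, a choice made after seeing the data. The median log2 fold change was then 0.13, 0 genes passed and 20 of 27 were positive, against 57.4% of all tested genes. In that comparison of 2 mice against 2, 0 genes were higher and 2 were lower at an unadjusted p of at most 0.05. The share of all tested genes at that threshold was not counted, so neither count is read as particular to the set. Groups were separate for 8 higher genes (29.6% against 33.8% of all tested genes) and 2 lower (7.41% against 22.5%). Without wild type mouse 4 alone the median was 0.31, and without double knockout mouse 2 alone it was 0.38.

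**Figure D2:**
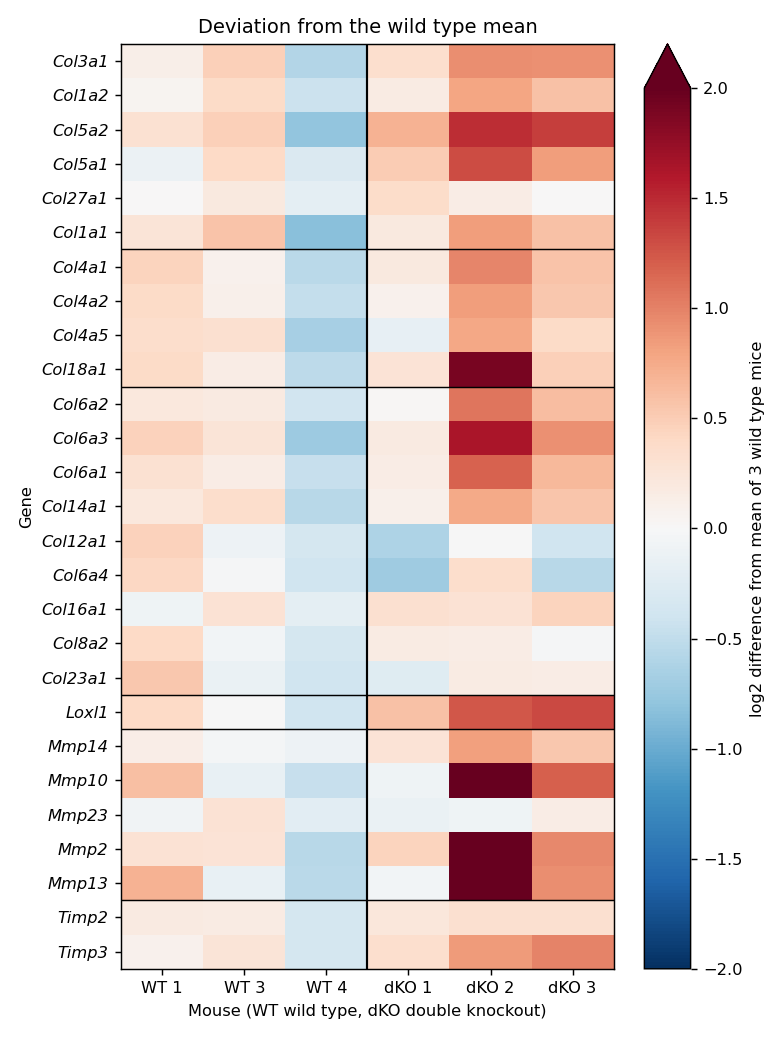
Difference of each mouse from the mean of the 3 wild type mice, in log2 units (colour, red higher and blue lower, with values above 2 shown at the end of the scale), for the 27 tested genes (rows) and 6 mice (columns). Wild type mouse 4 is blue for nearly every gene, and double knockout mice 2 and 3 are red for most collagens, for Loxl1 and for Mmp10, Mmp2 and Mmp13.

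Among fibrillar collagens, 6 of 11 genes were bright enough to test, and 0 rose, 0 fell and 6 did not pass. All 6 fold changes were positive, with a median of 0.63. Col5a2, a chain of type V collagen that regulates fibril diameter, had the largest of them. Its log2 values were 6.39, 6.56 and 5.28 in wild type mice 1, 3 and 4 and 6.77, 7.55 and 7.46 in double knockout mice 1, 2 and 3. The groups did not overlap, but the lowest double knockout mouse stood close to the 2 higher wild type mice, and the log2 fold change was 1.18 ± 0.37 (SE, n = 3 per group, limma adjusted p = 0.108).

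Its partner chain Col5a1 had values of 5.09, 5.60 and 4.92 in wild type and 5.72, 6.51 and 6.05 in double knockout mice. The groups were again separate, and double knockout mouse 1 was again the nearest to wild type. The log2 fold change was 0.89 ± 0.25 (limma adjusted p = 0.0881). Dimmer Col5a1 probe sets, below the filter, gave 0.81 ± 0.31 and 0.13 ± 0.09 in the fit without the filter, both with overlapping groups. Leaving out wild type mouse 4 and double knockout mouse 2 brought the differences of Col5a2 and Col5a1 to 0.64 and 0.54. The remaining type V chain, Col5a3, was below 4 in every mouse.

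Col3a1, the type III collagen of distensible organs such as the gut, had 10.25, 10.61 and 9.57 in wild type and 10.48, 11.08 and 11.05 in double knockout mice. Here wild type mouse 3 lay above double knockout mouse 1, and the log2 fold change was 0.73 ± 0.29 (limma adjusted p = 0.171). A dimmer Col3a1 probe set gave 0.71 ± 0.22, with no overlap between the groups. Col1a2, a chain of type I collagen, had 9.53, 9.86 and 9.05 in wild type and 9.65, 10.27 and 10.06 in double knockout mice, with a log2 fold change of 0.51 ± 0.24 (limma adjusted p = 0.226).

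The other tested Col1a2 probe set, with wild type values of 6.47, 6.91 and 6.30 and double knockout values of 7.05, 7.75 and 7.63, gave a larger difference of 0.92 ± 0.23 and separate groups. It too missed the threshold. Col1a1, the major chain of type I collagen, was measured near the minimum, at 4.50, 4.82 and 3.40 against 4.44, 5.07 and 4.83, and its difference of 0.54 ± 0.37 became -0.02 without wild type mouse 4 and double knockout mouse 2 and 0.83 without wild type mouse 3. A dimmer Col1a1 probe set, below the filter, had 3.33, 3.46 and 2.99 in wild type and 3.62, 4.27 and 4.73 in double knockout mice. It gave 0.95 ± 0.27 in the fit without the filter, with separate groups. Col27a1, a fibrillar collagen known from cartilage, stood at 0.17 ± 0.14. Limma adjusted p-values of Col1a1 and Col27a1 were 0.383 and 0.450.

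The stretches directly upstream of the starts of Col1a2 and Col3a1, the 2 brightest collagens on this array, are shown so that their promoter elements can be compared. They are 120 bases long, read 5′ to 3′ and end at the base before the annotated start, from RefSeq on GRCm38.p6, with matches to the motifs below in capitals.
Col1a2 (chr6:4505498-4505617, plus strand): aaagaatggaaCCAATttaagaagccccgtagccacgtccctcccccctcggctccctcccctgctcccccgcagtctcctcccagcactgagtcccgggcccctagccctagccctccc
Col3a1 (chr1:45311418-45311537, plus strand): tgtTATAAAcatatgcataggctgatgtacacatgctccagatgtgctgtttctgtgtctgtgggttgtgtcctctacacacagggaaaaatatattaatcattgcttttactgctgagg
The capitals mark a CCAAT box 109 bases before the Col1a2 start and a TATAAA 117 bases before the Col3a1 start. No CCAAT was found in the 250 bases before the Col3a1 start, and no TATAAA in those before Col1a2.

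Basement membrane collagens varied alike across mice. Of 8 genes 4 were tested, and 0 rose, 0 fell and 4 did not pass, with a median log2 fold change of 0.53. Col4a1 and Col4a2 encode the chains of the common type IV trimer, and in RefSeq their starts lie 21 bases apart on opposite strands of chromosome 8. Col4a1 had 8.86, 8.50 and 7.88 in wild type and 8.61, 9.39 and 8.97 in double knockout mice, and Col4a2 had 7.79, 7.52 and 6.93 against 7.49, 8.25 and 7.95. The mice stood in nearly the same order for both, with wild type mouse 4 lowest and double knockout mouse 2 highest, and double knockout mouse 1 was inside the wild type range for each.

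The log2 fold changes were 0.58 ± 0.29 for Col4a1 and 0.48 ± 0.27 for Col4a2, with limma adjusted p-values of 0.252 and 0.294. Without wild type mouse 4 and double knockout mouse 2 they were 0.11 and 0.07. Col4a5, a chain of a different type IV trimer, stood at 0.33 ± 0.34 (limma adjusted p = 0.567) at -0.23 without those mice and at 0.58 without double knockout mouse 1. Col18a1, whose C-terminal fragment is endostatin, had 4.84, 4.61 and 3.95 in wild type and 4.74, 6.37 and 4.95 in double knockout mice. Its difference of 0.89 ± 0.45 (limma adjusted p = 0.257) was 0.38 without double knockout mouse 2 and 1.58 in a fit adjusted for the 3′ to 5′ measure of RNA integrity.

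The other collagens held 23 genes, of which 9 were tested, and none of the 9 passed. Type VI collagen forms beaded filaments around cells, and its chains Col6a1, Col6a2 and Col6a3 had log2 fold changes of 0.66 ± 0.30, 0.57 ± 0.29 and 0.91 ± 0.44. Col6a3 had 7.62, 7.42 and 6.44 in wild type and 7.33, 8.79 and 8.07 in double knockout mice. Double knockout mouse 1 lay within the wild type range for all 3 chains, and mouse 2 was the highest for all 3. Limma adjusted p-values were 0.214, 0.252 and 0.233, and without wild type mouse 4 and double knockout mouse 2 the differences were 0.17, 0.13 and 0.19.

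Col6a4 and Col12a1 ran the other way. Col6a4, a further type VI family chain, had 6.21, 5.78 and 5.40 in wild type and 5.09, 6.16 and 5.24 in double knockout mice, and Col12a1, a fibril-associated collagen of dense connective tissue, had 6.60, 6.04 and 5.79 against 5.52, 6.14 and 5.75. In both genes double knockout mice 1 and 3 were below all wild type mice and double knockout mouse 2 was not. The log2 fold changes were -0.31 ± 0.32 and -0.34 ± 0.24 (limma adjusted p 0.577 and 0.407), and -0.83 and -0.69 without wild type mouse 4 and double knockout mouse 2, where the groups did not overlap but the limma adjusted p-values were 0.163 and 0.233.

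Col6a4, Col12a1, Loxl1, Mmp10 and Mmp13 are the 5 tested members on chromosome 9, which also carries Ifrd2. The part of that location in their values was not tested. Of the remaining collagens, the fibril-associated Col14a1 stood at 0.47 ± 0.28 and Col16a1 at 0.35 ± 0.14, with an unadjusted p of 0.0453 for the latter. The network-forming Col8a2 stood at 0.09 ± 0.19 and the transmembrane Col23a1 at 0.02 ± 0.25, and the 2 tested probe sets of Col23a1 differed in sign (0.02 and -0.01). Limma adjusted p-values of Col14a1, Col16a1 and Col23a1 were 0.316, 0.176 and 0.960.

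Loxl1, a lysyl oxidase best known for elastic fibre crosslinking, had the smallest p of the set. It had 4.24, 3.84 and 3.45 in wild type and 4.42, 5.08 and 5.16 in double knockout mice. The groups did not overlap, though double knockout mouse 1 exceeded wild type mouse 1 by little. The log2 fold change was 1.04 ± 0.26, with a 95% interval of 0.42 to 1.67 and a limma adjusted p of 0.0704.

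Only 1 wild type value was above the minimum of 4, so Loxl1 was tested largely because its double knockout values were brighter, and a difference was favoured by that selection. Mmp13 and Col23a1 likewise were above 4 in 1 wild type and 2 double knockout mice. Mmp2, Col18a1, Col1a1 and Col8a2 were above 4 in 2 wild type and 3 double knockout mice. All of these reached 3 arrays only with double knockout values. Over the 15 alternatives for Loxl1, its limma adjusted p ran from 0.0429 to 0.288, and the lowest came with a trended and robust variance prior. Another Loxl1 probe set, and Lox, Loxl3 and Loxl4, were below 4 in all mice. Loxl2 shares its probe sets with another gene and was not analysed here.

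Counting the 20 genes above 4 on all 6 arrays, which did not depend on a bright group to be tested, 17 were positive (85.0%) with a median of 0.53, against 57.7% and a median of 0.05 over all 9154 such genes. Of the 20, 5 were higher with separate groups, a share near the 22.7% among those 9154. The plot of fold changes with their intervals shows the families side by side.

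**Figure D3:**
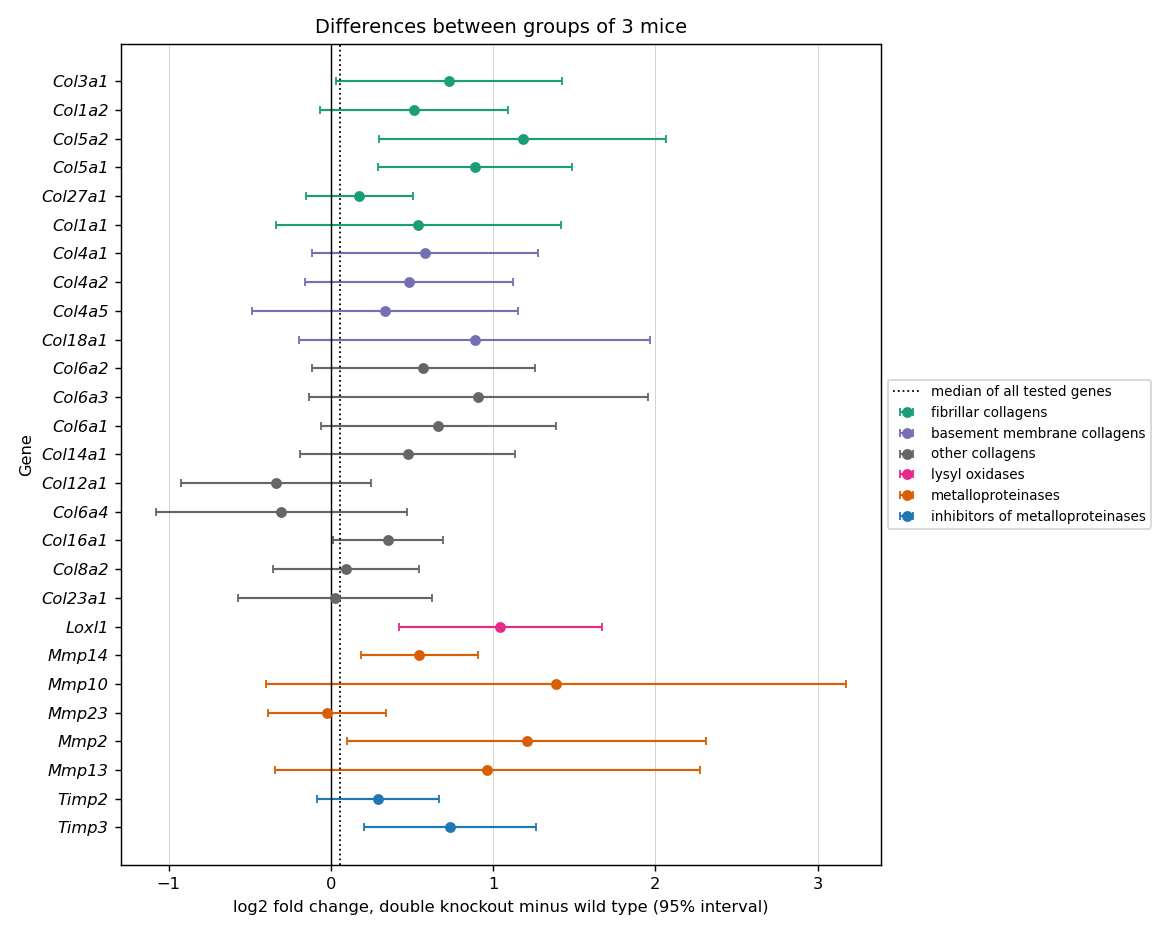
Log2 fold change, double knockout minus wild type (horizontal axis), with limma's 95% interval, for each of the 27 tested genes (vertical axis, coloured by family). The dotted line is the median over all tested genes, 0.05, and the intervals of Mmp10, Mmp2 and Mmp13 are the widest of the metalloproteinases.

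Of 17 metalloproteinases 5 were tested, and 0 rose, 0 fell and 5 did not pass. Mmp14, a membrane-bound collagenase that activates the gelatinase Mmp2, had the smallest p of the 5. It had 7.19, 7.01 and 6.95 in wild type and 7.33, 7.86 and 7.60 in double knockout mice, so the groups were separate and the wild type mice close together. The log2 fold change was 0.55 ± 0.15 (limma adjusted p = 0.0859), and 2 dimmer probe sets below the filter gave 0.48 and 0.78 in the fit without the filter. The groups overlapped on the former and not on the latter.

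Mmp2 itself had 4.71, 4.69 and 3.86 in wild type and 4.87, 6.63 and 5.38 in double knockout mice. All double knockout values were higher, but mouse 2 stood more than 1 log2 unit above its group mates. The log2 fold change was 1.21 ± 0.46 (limma adjusted p = 0.159). It was 0.70 without double knockout mouse 2, 0.43 when wild type mouse 4 was left out too and 1.82 in the fit adjusted for the 3′ to 5′ measure. On a dimmer Mmp2 probe set below the filter the groups overlapped, with double knockout mouse 1 at 3.41 and wild type mouse 3 at 3.77. That probe set gave 0.81 ± 0.48 in the fit without the filter.

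The stromelysin Mmp10 and the collagenase Mmp13 differed most between mice of 1 group. Mmp10 had 5.93, 5.17 and 4.87 in wild type and 5.24, 8.37 and 6.52 in double knockout mice, and Mmp13 had 4.02, 3.17 and 2.78 against 3.27, 5.34 and 4.24. For both, double knockout mouse 2 was highest and mouse 3 next, while mouse 1 stood inside the wild type range. Between double knockout mice 1 and 2 the gap was 3.13 log2 units for Mmp10 and 2.07 for Mmp13, the widest among the 27 genes.

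The log2 fold changes, 1.39 ± 0.75 for Mmp10 and 0.96 ± 0.55 for Mmp13, had limma adjusted p-values of 0.280 and 0.304. Leaving out double knockout mouse 2 brought them to 0.56 and 0.44, and leaving out double knockout mouse 1 to 2.12 and 1.47. With the 3′ to 5′ measure as a covariate they were 2.69 and 1.84, and blocked by mouse number 0.33 and 0.16. Raising values under 4 to 4 gave 0.52 for Mmp13. Neither gene passed in any of these fits. Mmp23, a small membrane-anchored member, was level at -0.02 ± 0.15 with a 95% interval of -0.39 to 0.34.

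Upstream sequences of Mmp10 and Mmp13 are printed with that of Mmp14. AP-1 and TATA elements are well known from the promoters of inducible metalloproteinase genes. The format is that used above for the collagens.
Mmp10 (chr9:7502222-7502341, plus strand): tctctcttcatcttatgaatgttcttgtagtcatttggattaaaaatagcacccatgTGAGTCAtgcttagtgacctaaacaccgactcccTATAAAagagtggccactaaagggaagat
Mmp13 (chr9:7272394-7272513, plus strand): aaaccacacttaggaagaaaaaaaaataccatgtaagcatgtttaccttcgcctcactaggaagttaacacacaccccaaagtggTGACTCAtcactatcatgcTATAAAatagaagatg
Mmp14 (chr14:54431478-54431597, plus strand): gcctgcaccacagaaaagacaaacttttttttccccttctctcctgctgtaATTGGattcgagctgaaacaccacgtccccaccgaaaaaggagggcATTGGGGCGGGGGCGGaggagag
Capitals mark TGANTCA, the AP-1 motif, 63 and 35 bases before the starts of Mmp10 and Mmp13, and TATAAA 29 and 16 bases before them. In Mmp14 they mark CCAAT on the minus strand, printed as ATTGG, 69 and 23 bases before the start, and GGGCGG, the GC box, 19 and 13 bases before it, with the nearer CCAAT overlapping a GC box by its last base.

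All 4 motifs were searched on both strands in the 250 bases before each start, for the 21 of 27 tested genes that have a window in the RefSeq table. AP-1 was found for 3 of the 21 (Mmp10, Mmp13 and Col6a1), or 14.3% against 7.82% of 27025 genes with a window. TATAAA was found for 3 (Mmp10, Mmp13 and Col3a1), or 14.3% against 14.3%. CCAAT was found for 9 (42.9% against 37.5%) and the GC box for 14 (66.7% against 35.4%). The 27025 genes were not limited to those bright on these arrays, as the 21 were, so the shares are not like for like. The matches are of letters only, and the arrays do not show whether any of them is bound. Their part in the differences between mice was not tested.

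Mmp9, a gelatinase of neutrophils and macrophages, was below the minimum in all 6 mice and so not tested. It was listed at 3.80, 3.81 and 3.75 in wild type and 2.76, 3.28 and 2.95 in double knockout mice, with no overlap. In the alternative that tested all 67 genes without the filter, it was the 1 member called, at -0.79 ± 0.14 (limma adjusted p = 0.0480). Values this low carry mostly the background estimate. Another Mmp9 probe set, also below 4 in every mouse, gave -0.21 ± 0.16 in that fit, with overlapping groups. Mmp1a, Mmp1b, Mmp3, Mmp8, Mmp11, Mmp12, Mmp16, Mmp17, Mmp19, Mmp20 and Mmp24 were also below 4 in every mouse.

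Of the 4 tissue inhibitors, Timp2 and Timp3 were tested, and 0 rose and 0 fell. Timp3, which binds to the matrix and also blocks ADAM proteases, had 7.40, 7.57 and 6.96 in wild type and 7.64, 8.17 and 8.31 in double knockout mice. The groups were separate by a narrow margin at double knockout mouse 1. Its log2 fold change was 0.73 ± 0.22 (limma adjusted p = 0.102), and its 2 other tested probe sets gave 0.62 ± 0.23 and 0.31 ± 0.11, also without overlap.

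Timp2, an inhibitor that also takes part in the activation of Mmp2 by Mmp14, had 8.37, 8.36 and 7.83 in wild type and 8.41, 8.51 and 8.51 in double knockout mice. The groups were just separate, because wild type mice 1 and 3 stood within 0.2 of every double knockout mouse. The log2 fold change was 0.29 ± 0.16 (limma adjusted p = 0.2835), with the 3 other tested probe sets at 0.24, -0.04 and -0.19. Timp1 was below 4 in all mice, and Timp4 exceeded it only in wild type mice 1 and 3, at 4.35 and 4.50.

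The collagens that were too dim to test were Col2a1, Col5a3, Col11a1, Col11a2 and Col24a1 among the fibrillar group and Col4a3, Col4a4, Col4a6 and Col15a1 among the basement membrane group. They also included Col6a5, Col7a1, Col8a1, Col9a1, Col9a2, Col9a3, Col10a1, Col13a1, Col17a1, Col19a1, Col20a1, Col22a1, Col25a1 and Col26a1. Many of these are known from cartilage, bone, skin or nerve. With the lysyl oxidases, metalloproteinases and inhibitors they made up the 40 dim genes, of which 39 were below 4 on all 6 arrays.

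Genes that work with the set were taken from 7 lists, of which 73 genes were tested. Limma called 1 of them higher (1.37%, against 3.17% of all tested genes) and 0 lower (against 1.60%). At an unadjusted p of at most 0.05, 12 were higher (16.4% against 17.6%) and 6 lower (8.22% against 10.4%), so these counts were no larger than over all tested genes. Lama5, a laminin chain of the epithelial basement membrane, was the gene that rose, on 1 of its 3 probe sets. It had 4.71, 4.39 and 4.02 in wild type and 5.96, 5.68 and 5.50 in double knockout mice, with a log2 fold change of 1.34 ± 0.20 (limma adjusted p = 0.0265). All double knockout mice were more than 0.7 above the highest wild type mouse.

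The Lama5 call was lost when any 1 mouse was left out (limma adjusted p from 0.0518 without wild type mouse 1 to 0.0917 without wild type mouse 4), while the difference stayed between 1.17 and 1.51. It was also lost with the 3′ to 5′ covariate (limma adjusted p = 0.174), when blocked by mouse number (0.123) and without both wild type mouse 4 and double knockout mouse 2 (0.152). In the fit without the filter, 2 other Lama5 probe sets, below 4 in every mouse, stood at -0.03 ± 0.13 and 0.03 ± 0.13. Of the 14 tested basement membrane partners, the other 13 did not pass, and the list median was 0.17.

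Enzymes and chaperones of collagen biosynthesis and secretion had 10 tested genes, 5 of them positive, with a median of 0.03. Crtap, part of the prolyl 3-hydroxylation complex, stood at 0.66 ± 0.15 with separate groups, and Mia2, of the collagen export machinery, at -0.79 ± 0.22 (limma adjusted p 0.0575 and 0.0869). Procollagen and lysyl oxidase processing had 5 tested genes and a median of 0.35, with the smallest p for the transglutaminase Tgm2 at 0.41 ± 0.10 and the procollagen C-proteinase enhancer Pcolce at 0.28 ± 0.13 (limma adjusted p 0.0670 and 0.217).

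Fibril-associated proteoglycans and matrix glycoproteins had 18 tested genes, 16 of them positive, with a median of 0.18. Fibronectin, Fn1, stood at 0.47 ± 0.19 and fibulin 1, Fbln1, at -0.53 ± 0.13 (limma adjusted p 0.170 and 0.0627). Collagen receptors had 4 tested genes and a median of -0.06, with the epithelial discoidin receptor Ddr1 at -0.33 ± 0.10 and the fibroblast receptor Ddr2 at 0.31 ± 0.15 (limma adjusted p 0.103 and 0.223).

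The other matrix proteases and inhibitors had 10 tested genes and a median of -0.03, with cathepsin L, Ctsl, at -0.43 ± 0.14 and Adam19 at 0.50 ± 0.17 (limma adjusted p 0.112 and 0.125). TGF-beta signalling, a main inducer of collagen genes, had 12 tested genes and a median of 0.06. Its members with the smallest p were the SMAD corepressor Skil at -0.17 ± 0.08 and the coreceptor Tgfbr3 at 0.35 ± 0.18 (limma adjusted p 0.234 and 0.265). Tgfb1, Tgfb2 and Tgfb3 were not bright enough to test.

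Markers of several cell types that make matrix varied along with the collagen genes from mouse to mouse. Of 14 fibroblast markers 12 were tested (Pi16 and Twist2 were too dim), 0 passed, 11 were positive and the median was 0.32. Their mean stood at 0.23, 0.04 and -0.27 in wild type mice 1, 3 and 4 and at 0.10, 0.44 and 0.32 in double knockout mice 1, 2 and 3, and their mean level ranged from 7.53 to 8.04 and from 7.90 to 8.24. Fbln1 (above) and Gsn, at 0.56 ± 0.20 (limma adjusted p = 0.145), had the smallest p of this list, and 4 of its genes are also in the lists above.

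Endothelial markers followed a like order, with 9 of 12 tested (Tie1, Emcn and Cldn5 were too dim), 0 passing, 9 positive and a median of 0.33. Their mean stood at 0.33, 0.05 and -0.38 in wild type and -0.13, 0.74 and 0.35 in double knockout mice, and their mean level ranged from 4.83 to 5.53 and from 5.07 to 5.95. The VEGF receptors Kdr and Flt1 stood at 0.56 ± 0.27 and 0.55 ± 0.30 (limma adjusted p 0.233 and 0.277). Macrophage and neutrophil markers had 4 of 11 tested and 0 passing, with a median of 0.28. Their mean stood at 0.27, 0.11 and -0.38 in wild type and -0.19, 0.71 and 0.11 in double knockout mice, and their mean level ranged from 7.34 to 7.99 and from 7.54 to 8.43. The neutrophil markers S100a8, S100a9 and Csf3r, with Cd68, Cd14, Itgam and Fcgr1, were too dim, and the macrophage receptors Mrc1 and Csf1r stood at 0.38 ± 0.31 and 0.26 ± 0.24 (limma adjusted p 0.460 and 0.525).

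In these 3 lists, as in the 27 matrix genes, wild type mouse 4 was lowest and double knockout mouse 2 highest. The order was not particular to cell type markers. These 2 mice stood at -0.278 and 0.442 for basement membrane partners, also the lowest and highest of the 6. The same held for fibril-associated proteoglycans and matrix glycoproteins (-0.227 and 0.285) and TGF-beta signalling (-0.077 and 0.107), but not for the other partner lists. The part of any of these lists in the matrix results was not tested.

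**Figure D4:**
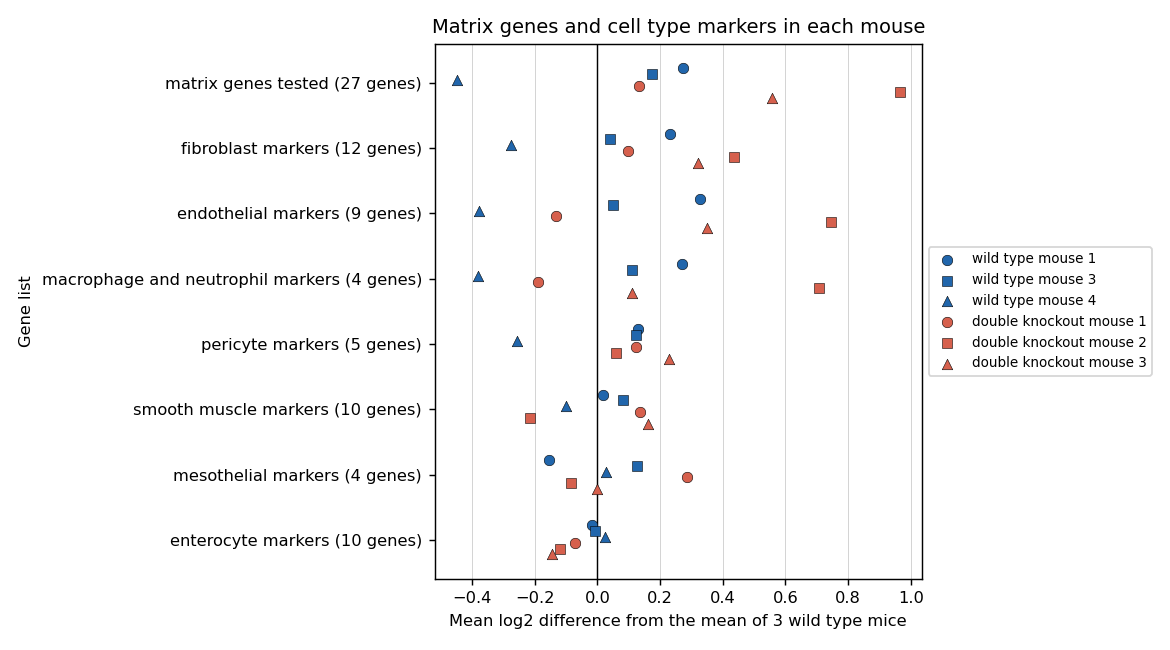
Mean log2 difference from the mean of the 3 wild type mice (horizontal axis) for the 27 tested matrix genes and 7 lists of cell type markers (vertical axis), 1 point per mouse. Wild type mouse 4 is the lowest and double knockout mouse 2 the highest point for the matrix genes and for fibroblast, endothelial and macrophage and neutrophil markers, and not for smooth muscle, mesothelial or enterocyte markers.

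Smooth muscle markers did not follow that order. Of 11 markers 10 were tested (Lmod1 was too dim), 0 passed and the median was 0.03. Their mean lay at 0.02, 0.08 and -0.10 in wild type and 0.14, -0.22 and 0.16 in double knockout mice, so double knockout mouse 2, highest for most collagens, was lowest here. Their mean level ranged from 9.81 to 10.00 and from 9.70 to 10.07. Smtn and Acta2, genes of the contractile apparatus, stood at 0.22 ± 0.11 and 0.13 ± 0.11 (limma adjusted p 0.260 and 0.499). Pericyte markers had 5 of 6 tested (Notch3 was too dim), 0 passing and a median of 0.24, with means of 0.13, 0.12 and -0.25 against 0.12, 0.06 and 0.23. The channel subunits Abcc9 and Kcnj8 stood at 0.29 ± 0.14 and 0.24 ± 0.12 (limma adjusted p 0.239 and 0.253).

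Enterocyte markers had 10 of 10 tested and 0 passing, with a median of -0.09, and 8 of the 10 were lower with separate groups, against 14.2% of all tested genes. Their mean lay at -0.02, -0.01 and 0.03 in wild type and -0.07, -0.12 and -0.14 in double knockout mice, a spread far smaller than that of the matrix genes. These markers were also far brighter, with mean levels of 13.4 to 13.5 against 5.63 to 7.05 for the matrix genes. The spreads were not compared at equal brightness. Lactase, Lct, and the retinol-binding protein Rbp2 stood at -0.29 ± 0.08 and -0.28 ± 0.10 (limma adjusted p 0.0847 and 0.131). Mesothelial markers had 4 of 6 tested (Msln and Wt1 were too dim), 0 passing and a median of 0.17, with Krt19 at 0.25 ± 0.09 and Upk3b at 0.37 ± 0.21 (limma adjusted p 0.148 and 0.306). Enteric glia and nerve markers and cartilage and bone markers had 1 tested gene each, Ret at -0.11 ± 0.14 and Sox9 at 0.11 ± 0.22, while Sox10, S100b, Gfap, Acan, Comp and Ibsp were too dim.

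The 3′ to 5′ difference of the control transcripts Actb and Gapdh, a measure of RNA integrity, was 0.35, 0.49 and 0.36 in wild type and 0.60, 0.41 and 0.61 in double knockout mice. Double knockout mice 1 and 3 had the largest values, and double knockout mouse 2 lay within the wild type range. The measure thus partly follows genotype, and a fit that includes it leans on double knockout mouse 2. Its part in the matrix results was not tested beyond such a fit. With this difference as a covariate the median of the 27 genes was 0.70, against 0.04 over all tested genes. Of the 27, 25 were positive, against 56.9% of all tested genes. In this fit 0 of the 27 passed, but over the whole array only 5 probe sets were called higher and 12 lower.

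Separate groups were also counted with each mouse left out, which makes separation easier for any gene. Without double knockout mouse 1, 20 of the 27 genes (74.1%) were higher with separate groups, against 29.3% of all tested genes, and 0 passed. Without wild type mouse 1 the count was 12 (44.4% against 28.3%), and without wild type mouse 3 it was 11 (40.7% against 28.3%). Without wild type mouse 4 it stayed at 7 (25.9% against 25.9%), as it did without double knockout mouse 3 (25.9% against 25.6%). Without double knockout mouse 2 it was 8 higher (29.6% against 29.7%) and 2 lower (7.41% against 19.2%).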

How the data were processed

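Jejunal RNA of 6 mice was measured on 1 array each. Each deposited column holds log2 expression, which the authors obtained by GCRMA (version 2.18.0, per the submitters' processing notes). Its options were not stated, and the log2 scale was inferred from the range of the values. GCRMA subtracts a modelled background, so low values carry little information.

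Of 45101 probe sets, 34958 named 1 gene, 932 several and 9211 none. A probe set was tested when 3 or more of the 6 arrays exceeded 4 in log2, which left 18013 once 64 controls were dropped. A linear model with genotype alone was fitted in limma 3.58.1 (R 4.3.3, lmFit, then eBayes). Differences are double knockout minus wild type. Two-sided p-values were adjusted by Benjamini-Hochberg across these 18013, and 0.05 was the threshold. Shares over all genes use 1 probe set a gene (9673). The labels name separate mice. Within each group, arrays differed by more than 0.1 for at least 62.5% of probe sets, so none is a copy. Data were also simulated for this comparison on 18013 probe sets. The fit recovered 7.46% of planted log2 changes of 0.5, 70.1% of changes of 1 and 90.9% of changes of 2, with 4 false calls. The simulated spread came from the array-wide variance prior, independently for each probe set. The matrix genes varied more, with median SDs of 0.42 and 0.38 against 0.12 and 0.13 over all tested genes. The recovered shares therefore do not apply to them.

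The genes and lists were chosen with earlier results of these data known. Named were the targeted genes, members with an unadjusted p of at most 0.05, the brightest and lowest-p members of each family, all tested Lox and Timp genes, members whose probe sets differ in sign, and up to 3 passing genes of each list or the 2 with the smallest p. Promoter windows are RefSeq's on GRCm38.p6. Alternatives covered the filter, normalization, low values, variance prior, array weights, a 3′ to 5′ covariate, the mouse number as a block, other probe sets and leaving out mice. Figures were drawn with matplotlib 3.10.9.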

Additional observations from a re-analysis of the deposited data

How the results depend on the processing

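The count of genes called over the whole array depended strongly on the setting, against 458 probe sets higher and 347 lower. It was 265 higher and 207 lower without the filter, 710 higher with a stricter filter at 6, 968 higher and 762 lower with a trended and robust prior, and 5 higher and 12 lower with the 3′ to 5′ covariate. Leaving out 1 mouse gave 11 to 196 higher and 21 to 239 lower. Leaving out wild type mouse 4 and double knockout mouse 2 together, chosen after seeing the data, gave 7 higher and 20 lower.

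Among the matrix genes, 0 were called except 1 lower without the filter (Mmp9) and 1 higher with the trended and robust prior (Loxl1, adjusted p = 0.0429). The median log2 fold change was 0.10 over all 67 genes without the filter and 0.13 without both mice named above, and leaving out 1 mouse gave 0.31 to 0.71. Genes higher with separate groups numbered 4 of 13 with the stricter filter (30.8% against 22.9% of all genes), 8 of 67 without the filter (14.9% of all genes) and 7 to 20 of 27 with 1 mouse left out (25.6% to 29.7% of all genes). Those lower numbered 4 of 67 without the filter (5.97% against 10.9%), 0 to 2 of 27 with 1 mouse left out (16.6% to 19.2% of all genes) and 2 without both mice (7.41% against 22.5%).

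The mouse number was tried as a block, though nothing in the labels says that it pairs mice, and deviations of same-numbered mice correlated at 0.02 (mouse 1) and 0.30 (mouse 3). Only mice 1 and 3 share a number, so the estimates with the block equal those without wild type mouse 4 and double knockout mouse 2. With the replicate block 2 probe sets were higher and 11 lower, and the median of the matrix genes was 0.13.

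Of the tested genes, 6 changed sign in some alternative, none with a call. With the block, and without both mice, Col4a5 was -0.23, Col1a1 -0.025, Col23a1 -0.24 and Col8a2 -0.10. Leaving out 1 mouse gave -0.0031 to 0.58 for Col4a5 and -0.079 to 0.29 for Col8a2, each negative only without wild type mouse 4. It gave -0.18 to 0.29 for Col23a1 and -0.13 to 0.12 for Mmp23. Col23a1 was -0.011 after quantile normalization and -0.077 with values under 4 raised to 4. Mmp23 was 0.0075 with array weights, and Col6a4 was 0.21 with the 3′ to 5′ covariate. The cause was not tested.

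Signal over background limits the 40 genes near the bottom of the scale, and 3 mice a group limit the rest.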
